A study of Mus musculus with 8 samples.

Results

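The 9 genes described here make haem, break it down, or bring iron into the cell, store it and release it. They are Alas1, Fech, Hmox1, Tfrc, Slc11a2, Slc11a1, Fth1, Slc40a1 and Ireb2, found by symbol among the 24421 genes of the deposited count table, and all 9 were present. They were chosen with their CPM (read counts scaled to library size) in these same libraries known, so their levels and fold changes are given as a description, without p-values. RNA was sequenced from mouse haematopoietic stem and progenitor cells (HSPCs), 8 libraries in 4 groups of 2, and per the series' design text the cells came from primary transplanted mice. WTEV was wild type cells carrying an empty vector, and dKOEV was dKO cells carrying the same empty vector. dKOPRMT was dKO cells carrying wild type PRMT1, an arginine methyltransferase, and dKOMut was dKO cells carrying PRMT1 without enzyme activity. Thus all 4 groups were transduced, and 3 of them share the dKO genotype. The series' title names β-catenin and Hoxa9, taken here as the genes removed in dKO. Neither the labels nor the design text gives the deleted exons, the Cre or other means of deletion, the age of the mice, the time after transplantation or the number of mice behind each library. Nothing states that replicates came from separate animals, so the errors and p-values cover the spread among the sequenced libraries, and this may be technical.

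Haem is built from glycine and succinyl-CoA in a pathway that starts and ends in the mitochondrion, where ALAS1 catalyses the rate-limiting first step in most cells and ferrochelatase (Fech) inserts the iron. Haem oxygenase 1 (Hmox1) opens the haem ring and frees that iron. Transferrin-bound iron enters through the transferrin receptor (Tfrc) and leaves the endosome through DMT1 (Slc11a2), while the related NRAMP1 (Slc11a1) moves divalent metal across the phagosome membrane of macrophages and neutrophils. Ferritin, a shell of heavy (Fth1) and light (Ftl1) chains, stores iron, and ferroportin (Slc40a1) is the known cellular iron exporter. When iron is scarce, the iron regulatory proteins IRP1 (Aco1) and IRP2 (Ireb2) bind iron responsive elements, stem-loops in UTRs. Binding in a 5′ UTR blocks translation, and binding in a 3′ UTR, as in Tfrc, protects the mRNA from decay.

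The iron responsive elements are shown because they are the sequence feature that divides the genes by their known mode of control. The reference annotation (GENCODE M21, GRCm38) was searched on the transcript strand for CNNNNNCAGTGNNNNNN, 17 bases that hold an unpaired C, a stem of 5 pairs (G-U pairs allowed) and the loop. The last base of the loop, after CAGTG, had to be A, C or T. A match was found in the 5′ UTR of 23 of 20597 genes (0.112%) and in the 3′ UTR of 100 of 20995 genes (0.476%). Of the 9 genes, Fth1 and Slc40a1 had a match in the 5′ UTR and Tfrc had 4 in the 3′ UTR. The sequences run 5′ to 3′ along the transcript, with the loop in capitals, and Ftl1 is printed as the partner chain of Fth1.
Fth1 5′ UTR, chr19:9982732-9982761, plus strand: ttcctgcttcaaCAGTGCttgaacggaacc
Ftl1 5′ UTR, chr7:45459778-45459807, minus strand: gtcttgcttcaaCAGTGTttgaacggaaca
Slc40a1 5′ UTR, chr1:45925464-45925493, minus strand: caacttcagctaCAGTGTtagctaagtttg
Tfrc 3′ UTR site 1, chr16:32631219-32631248, plus strand: aattatcggaagCAGTGCcttccataatta
Tfrc 3′ UTR site 2, chr16:32631598-32631627, plus strand: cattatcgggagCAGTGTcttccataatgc
Tfrc 3′ UTR site 3, chr16:32631663-32631692, plus strand: ctatatcggagaCAGTGAtctccatatgtt
Tfrc 3′ UTR site 4, chr16:32631710-32631739, plus strand: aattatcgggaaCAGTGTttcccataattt
The element lay in 4 of 5 coding transcripts of Fth1, in 1 of 2 of Ftl1, in 1 of 4 of Slc40a1 and in 1 of 3 of Tfrc. No match was found in Slc11a2, which says only that no stretch of its annotated UTRs met all these conditions, the loop and the 5 pairs. An element with another stem would be missed, so Slc11a2 is not placed here among genes without an element. Counts per gene do not separate transcripts with an element from those without one, and a match is a description of the sequence.

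Library totals ran from 15531344 to 22329749 counts. Prmt1 stood at 188 to 194.2 CPM in WTEV and dKOEV, at 1744 to 1758 CPM in dKOMut and at 975.7 to 980.6 CPM in dKOPRMT, so that the inactive form was the more abundant transcript. Enzyme activity and amount of Prmt1 transcript therefore cannot be told apart between dKOPRMT and dKOMut. Hoxa9 stood at 17.23 to 18.22 CPM in WTEV and at 1.872 to 5.791 CPM in the 6 dKO libraries. Ctnnb1, which encodes β-catenin, stood at 444.1 to 455.2 CPM in WTEV and at 360.1 to 390.6 CPM in dKO, which does not test the deletion while the deleted part is unknown. The WTEV libraries held Xist (121.3 to 159.1 CPM) and 0 counts of the Y-linked genes Ddx3y, Eif2s3y, Kdm5d and Uty, while the dKO libraries held the reverse, so genotype and sex cannot be told apart between dKOEV and WTEV. The genotype label of dKOMut replicate 2 names PRMT2, whereas its title places it in dKOMut, as used here. Source labels call every library dKO, WTEV included. Summed over 12 HSPC markers, the level lay between 1211 and 1238 CPM in WTEV, 1065 and 1112 in dKOEV, 1011 and 1036 in dKOMut and 940 and 953.2 in dKOPRMT. Of these 12 markers, 3 rose and 4 fell in dKOEV against WTEV, 2 rose and 8 fell in dKOPRMT against dKOEV, 2 rose and 5 fell in dKOMut against dKOEV, and 0 rose and 2 fell in dKOPRMT against dKOMut (0 higher at an unadjusted p under 0.05 and by DESeq2 or limma voom). Kit, the stem cell factor receptor, was 1 of the 2 that rose in dKOPRMT against dKOEV. It stood at 157.3 and 138.6 CPM in dKOEV and at 170.4 and 170.9 CPM in dKOPRMT. Gata2 was among the 8 that fell there, with 199 and 180.5 CPM in dKOEV and 124.8 and 106.6 CPM in dKOPRMT. In bulk RNA, fewer cells of a type and less RNA per cell cannot be told apart.

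All 9 genes passed the filter on low counts, with 378 to 51431 counts per library. Per length, averaged over the 8 libraries, Fth1 had by far the highest level at 1245 CPM per kb. Alas1 (89.7), Tfrc (62.5) and Hmox1 (46.3 CPM per kb) followed. Slc11a1 (22.6), Slc40a1 (19.7), Fech (18.02) and Ireb2 (18.01 CPM per kb) lay close together, and Slc11a2 was lowest at 5.17 CPM per kb.

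**Figure D1:**
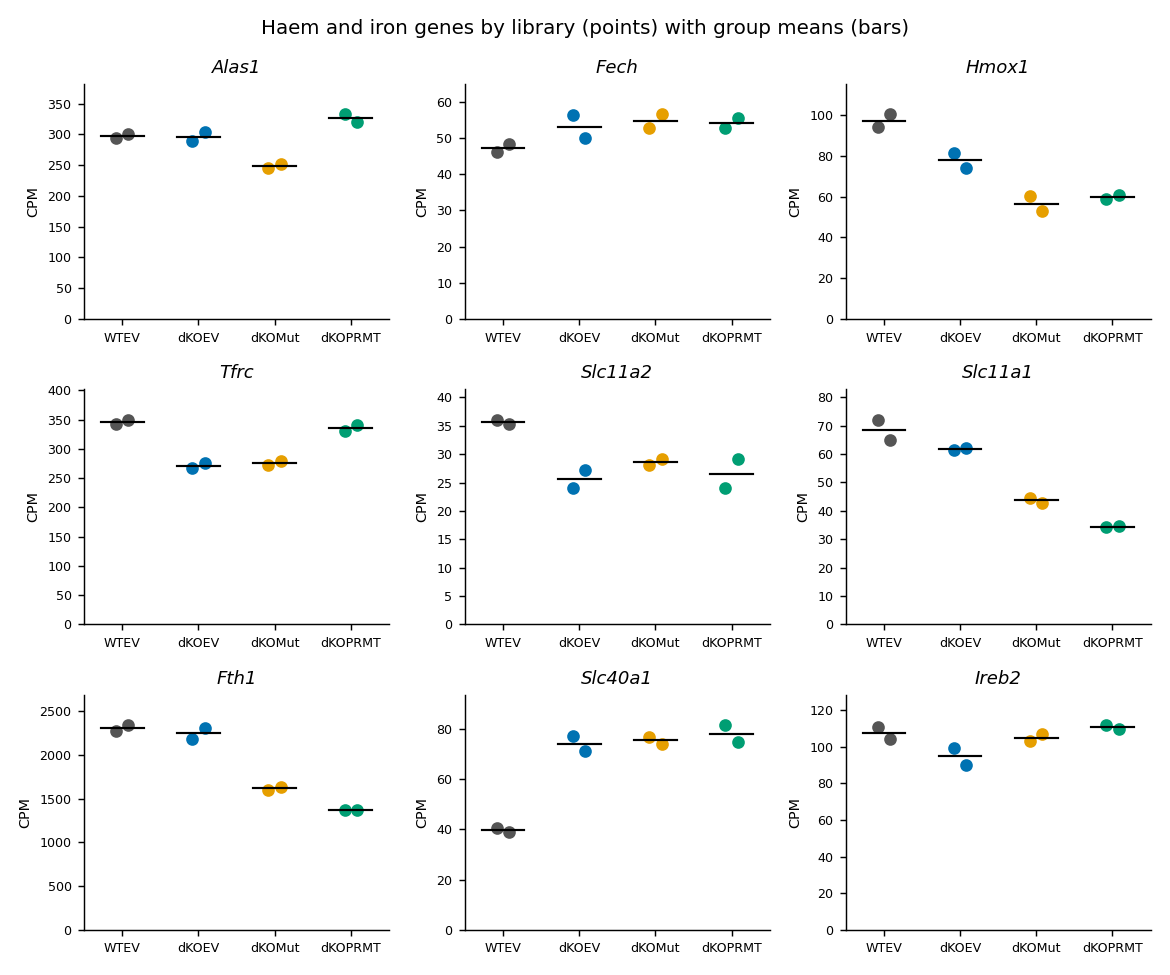
CPM of the 9 genes on linear axes from 0, with a point for each library and a bar at the mean of the 2 libraries of a group. Fth1 and Slc11a1 step down from dKOEV to dKOMut to dKOPRMT, Slc40a1 is lower in WTEV (38.94 and 40.45 CPM) than in the 6 dKO libraries, and Tfrc is higher in WTEV and dKOPRMT than in dKOEV and dKOMut.

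In dKOEV against WTEV, 1 of the 9 genes (Slc40a1) was called higher and 4 (Hmox1, Tfrc, Slc11a2 and Ireb2) were called lower by edgeR's quasi-likelihood test at an adjusted p under 0.05. Over all 12744 genes tested, 8.44% were called higher and 7% lower in that comparison. In dKOPRMT against dKOEV, 3 (Alas1, Tfrc and Ireb2) were called higher and 3 (Hmox1, Fth1 and Slc11a1) lower, beside 5.96% and 8.67% of all genes. In dKOMut against dKOEV, 0 were called higher and 4 (Alas1, Hmox1, Fth1 and Slc11a1) lower, beside 4.24% and 7.08%. DESeq2 and limma voom also called 0 higher there, and 1 was higher at an unadjusted p under 0.05 by edgeR. In dKOPRMT against dKOMut, 2 (Alas1 and Tfrc) were called higher and 2 (Fth1 and Slc11a1) lower, beside 1.43% and 1.68%. Because the genes were chosen on these values, nothing is read from the counts of calls. Their median log2 fold changes in these 4 comparisons were -0.15, 0.04, 0.02 and 0.05, beside medians near 0 for all genes (-0.0005, 0.0004, 0.0024 and -0.0014). The 3 comparisons that involve dKOEV share its 2 libraries, and those that involve dKOPRMT or dKOMut share theirs.

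**Figure D2:**
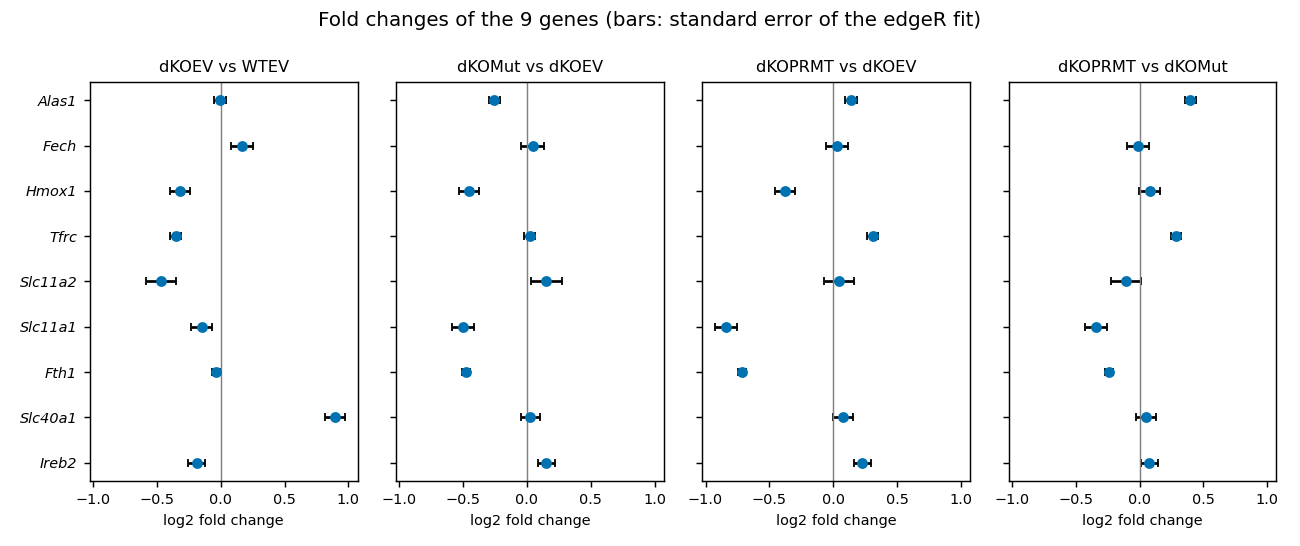
Log2 fold change of each of the 9 genes (points) with the standard error of the edgeR fit (bars) in the 4 comparisons. The furthest points from 0 are Slc40a1 in dKOEV against WTEV (0.90) and Slc11a1 (-0.84) and Fth1 (-0.72) in dKOPRMT against dKOEV.

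Of the haem synthesis genes, Alas1 differed between dKOPRMT and dKOMut, and Fech varied little. Alas1 (chr9:106233455-106247954, minus strand) stood at 294.8 and 300.5 CPM in WTEV, 289.6 and 303.2 in dKOEV, 245.2 and 251.4 in dKOMut and 332.7 and 320.5 in dKOPRMT. Both dKOMut libraries were the lowest of all 8 and both dKOPRMT libraries the highest, while WTEV and dKOEV overlapped. The log2 fold change was 0.40 ± 0.04 (SE, n = 2 a group) for dKOPRMT against dKOMut and -0.26 ± 0.04 for dKOMut against dKOEV. It was 0.14 ± 0.04 for dKOPRMT against dKOEV, a call lost without dKOEV replicate 1 (0.11), dKOPRMT replicate 1 (0.11) or dKOPRMT replicate 2 (0.17). Between dKOEV and WTEV it was -0.01 ± 0.04.

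Fech (chr18:64456550-64489066, minus strand) was called in none of the 4 comparisons. Its level was 46.23 and 48.25 CPM in WTEV, 56.32 and 49.94 in dKOEV, 52.76 and 56.54 in dKOMut and 52.7 and 55.46 in dKOPRMT. The WTEV libraries were the lowest pair, and the 3 dKO groups overlapped. Its largest log2 fold change was 0.17 ± 0.09, for dKOEV against WTEV, and 0.08 without dKOEV replicate 1. The first and the last enzyme of the pathway thus had different profiles over the same 8 libraries.

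Of the 15 other haem synthesis genes tested, 3 rose and 0 fell in dKOPRMT against dKOEV (1 lower at an unadjusted p under 0.05, 0 lower by DESeq2 or limma voom). Among those that rose, Slc25a37, which encodes mitoferrin 1, the importer of iron for haem in red cell precursors, was higher by 0.42 ± 0.11 (log2, SE, edgeR adjusted p = 0.00503), a call lost without dKOEV replicate 2 (0.24) or dKOPRMT replicate 1 (0.41). Abcb10, an inner membrane transporter that binds mitoferrin 1, rose by 0.29 ± 0.07 (edgeR adjusted p = 0.00569), lost without dKOEV replicate 2 (0.22) or dKOPRMT replicate 2 (0.29). In dKOEV against WTEV, 0 rose (0 at an unadjusted p under 0.05 and by either other tool) and Cpox, which encodes coproporphyrinogen oxidase, fell by 0.35 ± 0.09 (edgeR adjusted p = 0.0071, lost without WTEV replicate 2, -0.29). None of the 15 passed the test in dKOMut against dKOEV or in dKOPRMT against dKOMut with edgeR, DESeq2 or limma voom, with 1 and 2 higher and 0 lower at an unadjusted p under 0.05. Alas2, the erythroid form of the first enzyme, had 40 counts in all 8 libraries together and was not tested.

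Erythroid markers moved over the same groups. Their summed level over 18 genes with a row was 259.6 to 266.2 CPM in WTEV, 202.4 to 206.2 in dKOEV, 144.6 to 145.4 in dKOMut and 117.7 to 122.9 in dKOPRMT. The globin genes Hba-a1, Hba-a2, Hbb-bs and Hbb-bt had 0 counts in all libraries, although reads of near-identical globin copies may be lost in counting. Of 13 markers tested, 6 fell in dKOEV against WTEV, 6 in dKOPRMT against dKOEV, 4 in dKOMut against dKOEV and 0 in dKOPRMT against dKOMut, where 5 were lower at an unadjusted p under 0.05 and DESeq2 and limma voom called 0. Markers were thus lowest in dKOPRMT, where Alas1 was highest. Their part in the results for Alas1 and Tfrc was not tested.

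Hmox1 (chr8:75093618-75100593, plus strand) was highest in WTEV and lowest in the libraries with either form of PRMT1. Its level was 94.03 and 100.5 CPM in WTEV, 81.59 and 74.35 in dKOEV, 60.5 and 52.85 in dKOMut and 58.72 and 61.08 in dKOPRMT. WTEV and dKOEV overlapped neither each other nor the other groups, whereas dKOMut and dKOPRMT overlapped. For dKOEV against WTEV the log2 fold change was -0.32 ± 0.08, a call lost without WTEV replicate 2 (-0.27). Against dKOEV it was -0.46 ± 0.08 for dKOMut and -0.38 ± 0.08 for dKOPRMT, and between those groups it was 0.08 ± 0.08. Hmox1 thus had similar levels in dKOMut and dKOPRMT.

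Among 11 other genes of haem transport and breakdown, 1 rose and 3 fell in dKOPRMT against dKOEV. Hp, which encodes haptoglobin, the plasma protein that captures free haemoglobin and is also stored in neutrophil granules, rose by 0.26 ± 0.04 (log2, SE, edgeR adjusted p = 4.15e-06). It also rose by 0.29 ± 0.04 in dKOMut against dKOEV (edgeR adjusted p = 6.25e-07). Pgrmc1, a haem-binding membrane protein, fell by 0.36 ± 0.07 in dKOPRMT (edgeR adjusted p = 0.000508, lost without dKOEV replicate 2, -0.22). Blvrb, a biliverdin reductase acting downstream of haem oxygenase, fell by 0.38 ± 0.10 (edgeR adjusted p = 0.00973, lost without dKOPRMT replicate 1, -0.32). Abcg2, an exporter that carries porphyrins among other substrates, fell by 0.58 ± 0.16 (edgeR adjusted p = 0.00921, lost without dKOEV replicate 2, -0.40, or dKOPRMT replicate 1, -0.49).

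Between dKOEV and WTEV, Slc48a1, which encodes the lysosomal haem transporter HRG1, rose by 0.22 ± 0.05 (edgeR adjusted p = 0.00214). Pgrmc1 fell there by 0.25 ± 0.07 (edgeR adjusted p = 0.0146, lost without WTEV replicate 2, -0.19, or dKOEV replicate 1, -0.14), and the value was -0.40 without dKOEV replicate 2. In dKOMut against dKOEV, Pgrmc1 fell by 0.23 ± 0.07 (edgeR adjusted p = 0.0369), a call lost without dKOEV replicate 2 (-0.09), dKOMut replicate 1 (-0.21), dKOMut replicate 2 (-0.24), dKOPRMT replicate 1 or dKOPRMT replicate 2 (both -0.23), and also lost with DESeq2 (-0.23) and with the compared groups alone (-0.23). In dKOPRMT against dKOMut, 0 of the 11 were called with edgeR, DESeq2 or limma voom, and 0 were past an unadjusted p of 0.05. Hmox2, the constitutive haem oxygenase, was called in none of the 4 comparisons, with levels from 64.18 to 72.83 CPM over all libraries.

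Macrophages, which recycle haem iron and express Hmox1, Slc11a1 and Slc40a1, are another cell type that could contribute RNA, so their markers were measured. Summed over 16 markers, the level was 1612 to 1672 CPM in WTEV, 1426 to 1453 in dKOEV, 971 to 973.9 in dKOMut and 1115 to 1165 in dKOPRMT. Of 12 markers tested, 1 rose and 6 fell in dKOEV against WTEV, 1 rose and 9 fell in dKOPRMT against dKOEV, 0 rose and 10 fell in dKOMut against dKOEV, and 6 rose and 0 fell in dKOPRMT against dKOMut. At an unadjusted p under 0.05, also 0 were higher in dKOMut than in dKOEV and 0 lower in dKOPRMT than in dKOMut, and DESeq2 and limma voom called 0 in these directions. The complement gene C1qb, for example, was 1.09 ± 0.08 lower on the log2 scale in dKOEV than in WTEV (edgeR adjusted p = 2.12e-12). Clec4f had 0 counts, and Marco, Cd5l, Timd4 and Spic lay between 0 and 2.553 CPM. Other macrophage markers were well expressed, with Adgre1 at 202.2 to 246.8 CPM, Mrc1 at 62.4 to 147.5, Axl at 76.99 to 160.7 and Vcam1 at 28.65 to 55.51 over the 8 libraries. The sum, Hmox1, Slc11a1 and Fth1 were all lower in dKOMut and dKOPRMT than in dKOEV, while Slc40a1 overlapped among these groups. The markers' part in the results for Hmox1, Slc11a1, Slc40a1 and Fth1 was not tested.

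**Figure D3:**
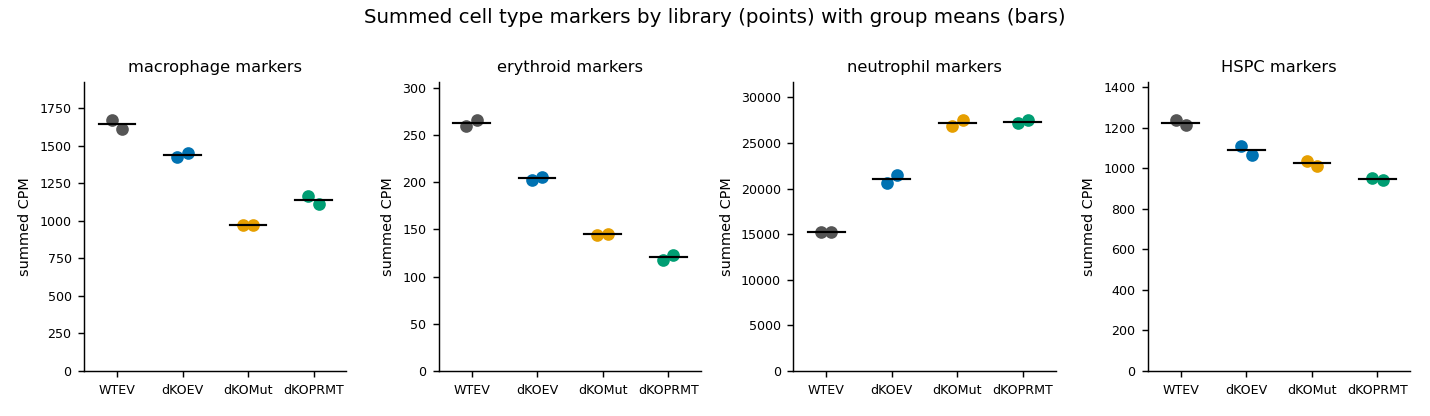
Summed CPM of the markers of 4 cell types, with a point for each library and a bar at the group mean. Macrophage, erythroid and HSPC markers are highest in WTEV, neutrophil markers are lowest there (15210 to 15230 CPM), and the macrophage sum is lowest in dKOMut (971 to 973.9 CPM).

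For iron uptake, Tfrc and Slc11a2 were both lower in dKOEV than in WTEV, and of these Tfrc was back near its WTEV level in dKOPRMT. Tfrc (chr16:32608896-32632794, plus strand) stood at 343 and 349.7 CPM in WTEV, 267.4 and 275.2 in dKOEV, 271.6 and 279.6 in dKOMut and 330.3 and 341.2 in dKOPRMT. The dKOEV and dKOMut libraries overlapped, and all 4 lay below both dKOPRMT libraries, which in turn lay just below WTEV. The log2 fold change was -0.35 ± 0.04 for dKOEV against WTEV, 0.31 ± 0.04 for dKOPRMT against dKOEV and 0.29 ± 0.04 for dKOPRMT against dKOMut. For dKOMut against dKOEV it was 0.02 ± 0.04. Of the 9 genes, Tfrc and Alas1 were the ones called higher in dKOPRMT than in dKOMut.

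Slc11a2 (chr15:100387900-100423055, minus strand) did not follow Tfrc in dKOPRMT. Its level was 36.05 and 35.33 CPM in WTEV, 24.06 and 27.28 in dKOEV, 28.06 and 29.19 in dKOMut and 23.97 and 29.1 in dKOPRMT. Both WTEV libraries lay above all 6 dKO libraries, and dKOPRMT overlapped dKOEV and dKOMut. Its log2 fold change was -0.47 ± 0.12 for dKOEV against WTEV, 0.04 ± 0.12 for dKOPRMT against dKOEV, 0.15 ± 0.12 for dKOMut against dKOEV and -0.11 ± 0.12 for dKOPRMT against dKOMut.

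Slc11a1 (chr1:74375203-74386051, plus strand) was lowest in dKOPRMT. It stood at 72.09 and 64.84 CPM in WTEV, 61.41 and 62.17 in dKOEV, 44.51 and 42.81 in dKOMut and 34.4 and 34.56 in dKOPRMT. No group overlapped another, in the order WTEV, dKOEV, dKOMut, dKOPRMT. The log2 fold change was -0.84 ± 0.09 for dKOPRMT against dKOEV (a fold of 0.558) and -0.50 ± 0.09 for dKOMut against dKOEV. Between dKOPRMT and dKOMut it was -0.34 ± 0.09, a call lost without dKOMut replicate 1 (-0.31), dKOMut replicate 2 (-0.37), dKOPRMT replicate 1 (-0.34) or dKOPRMT replicate 2 (-0.35). For dKOEV against WTEV it was -0.15 ± 0.08 and was not called. The summed macrophage markers were, like Slc11a1, lower in dKOEV than in WTEV and lower again in dKOMut and dKOPRMT. Between dKOMut and dKOPRMT they went the other way.

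Per length within each library, Slc11a1 was 4.89 and 4.49 times as abundant as Slc11a2 in WTEV, 6.24 and 5.57 times in dKOEV, 3.88 and 3.59 times in dKOMut and 3.51 and 2.91 times in dKOPRMT. The ratio was highest in dKOEV, and the phagosomal transporter stayed the more abundant of these related genes in all 8 libraries.

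Of 8 other iron uptake genes tested, 2 rose and 1 fell in dKOEV against WTEV, 1 rose and 2 fell in dKOPRMT against dKOEV, 2 rose and 2 fell in dKOMut against dKOEV, and 0 rose and 2 fell in dKOPRMT against dKOMut (0 higher at an unadjusted p under 0.05 and by DESeq2 or limma voom). Ltf (lactoferrin) and Lcn2 (lipocalin 2), which bind iron or iron-carrying siderophores and are stored in neutrophil granules, made up every rise. Ltf rose by 0.98 ± 0.03 in dKOEV against WTEV (log2, SE, edgeR adjusted p = 6.26e-23), by 0.60 ± 0.03 in dKOMut against dKOEV (edgeR adjusted p = 5.61e-17) and by 0.21 ± 0.03 in dKOPRMT against dKOEV (edgeR adjusted p = 7.02e-06). It fell by 0.40 ± 0.03 in dKOPRMT against dKOMut (edgeR adjusted p = 2.64e-11). Lcn2 rose by 0.78 ± 0.04 in dKOEV against WTEV (edgeR adjusted p = 9.9e-19) and fell by 0.23 ± 0.04 in dKOPRMT against dKOMut (edgeR adjusted p = 3.65e-05). Its rise of 0.16 ± 0.04 in dKOMut against dKOEV (edgeR adjusted p = 0.00172) was lost without dKOMut replicate 2 (0.13).

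Neutrophil markers were also higher in dKOEV than in WTEV, but their sum did not follow Ltf and Lcn2 between dKOMut and dKOPRMT. Summed over 12 markers, they stood at 15210 to 15230 CPM in WTEV, 20570 to 21460 in dKOEV, 26910 to 27480 in dKOMut and 27160 to 27520 in dKOPRMT, and none was at 0. The sums of dKOMut and dKOPRMT overlapped, where Ltf and Lcn2 fell. Of the 12, 11 rose and 0 fell in dKOEV against WTEV, 8 rose and 2 fell in dKOPRMT against dKOEV, 9 rose and 0 fell in dKOMut against dKOEV, and 4 rose and 6 fell in dKOPRMT against dKOMut. The sum thus hid opposite changes in that last comparison. Mpo (7882 CPM in dKOMut and 9073 in dKOPRMT), Elane, Prtn3 and Cebpe rose. Ngp, Retnlg, S100a8, S100a9, Mmp8 and Cd177 fell, as Ltf and Lcn2 did. The counts of 0 were 0 at an unadjusted p under 0.05 and by DESeq2 and limma voom as well. Their part in the results for Ltf, Lcn2, Hp and Slc11a1 was not tested.

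Steap3 and Tfr2 made up the falls in the comparisons of dKOEV with the other groups. Steap3, the endosomal ferrireductase that prepares transferrin iron for DMT1, stood at 56.47 and 53.32 CPM in WTEV, 40.86 and 44.52 in dKOEV, 35.84 and 33.64 in dKOMut and 34.95 and 32.13 in dKOPRMT. It was thus lower in dKOEV, as Tfrc and Slc11a2 were, and stayed low in dKOPRMT, as Slc11a2 did. Steap3 fell by 0.36 ± 0.09 in dKOEV against WTEV (log2, SE, edgeR adjusted p = 0.00642, lost without WTEV replicate 1, -0.32). It fell by 0.35 ± 0.10 in dKOPRMT against dKOEV (edgeR adjusted p = 0.0107, lost without dKOEV replicate 2, -0.28, or dKOPRMT replicate 2, -0.29). In dKOMut against dKOEV it fell by 0.30 ± 0.10 (edgeR adjusted p = 0.0384), a call lost in 7 of the 8 fits that left out a library, with a log2 fold change of -0.23 without dKOEV replicate 2 and -0.25 without dKOMut replicate 2, and dKOEV replicate 1 was the exception. That call was also lost with DESeq2 (-0.30) and with the compared groups alone (-0.30).

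Tfr2, the second transferrin receptor, which acts as an iron sensor in liver and red cell precursors, stood at 17.88 and 17.5 CPM in WTEV, 19.41 and 26.83 in dKOEV, 16.03 and 16.87 in dKOMut and 12.14 and 14.52 in dKOPRMT. It fell by 0.80 ± 0.16 in dKOPRMT against dKOEV (edgeR adjusted p = 0.000243), a size that changed to -0.54 without dKOEV replicate 2. Its fall of 0.50 ± 0.15 in dKOMut against dKOEV (edgeR adjusted p = 0.0277) was lost without dKOEV replicate 2 (-0.23), dKOMut replicate 1 (-0.46) or dKOMut replicate 2 (-0.53) and with DESeq2 (-0.49). Tfrc and Tfr2 thus lay in opposite directions in dKOPRMT against dKOEV.

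Both ferritin chains were lower in dKOMut and dKOPRMT than in dKOEV. Fth1 (chr19:9980600-9985111, plus strand) stood at 2269 and 2336 CPM in WTEV, 2183 and 2304 in dKOEV, 1597 and 1632 in dKOMut and 1366 and 1367 in dKOPRMT. WTEV and dKOEV overlapped, dKOMut lay well below both, and dKOPRMT lay below dKOMut. The log2 fold change was -0.72 ± 0.03 for dKOPRMT against dKOEV (a fold of 0.609), -0.47 ± 0.03 for dKOMut against dKOEV and -0.24 ± 0.03 for dKOPRMT against dKOMut. For dKOEV against WTEV it was -0.04 ± 0.03. Under the alternatives, the value for dKOPRMT against dKOEV ran from -0.75 to -0.67 and every call of Fth1 was kept.

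Ftl1, the light chain, differed from Fth1 between dKOEV and WTEV. Its level was 5036 and 4821 CPM in WTEV, 5664 and 5824 in dKOEV, 4398 and 4682 in dKOMut and 4450 and 4315 in dKOPRMT. Ftl1 rose by 0.22 ± 0.03 in dKOEV against WTEV (log2, SE, edgeR adjusted p = 1.27e-06) and fell against dKOEV by 0.34 ± 0.03 in dKOMut (edgeR adjusted p = 9.07e-11) and 0.39 ± 0.03 in dKOPRMT (edgeR adjusted p = 2.34e-12). Per length, the ratio of Fth1 to Ftl1 was 0.289 and 0.311 in WTEV, 0.248 and 0.254 in dKOEV, 0.233 and 0.224 in dKOMut and 0.197 and 0.203 in dKOPRMT, without overlap between any groups. Ferritin genes have many processed pseudogenes, so some of their reads may be counted elsewhere or not at all. Of the other 4 storage and export genes tested, Ncoa4, Pcbp1, Pcbp2 and Cp, none was called in any of the 4 comparisons by edgeR, and none was past an unadjusted p of 0.05; DESeq2 and limma voom called 0 of them as well.

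Slc40a1 (chr1:45908070-45925594, minus strand) had the largest fold change of the 9 genes. It lay between dKOEV and WTEV, where genotype and sex cannot be told apart. Its level was 40.45 and 38.94 CPM in WTEV, 77.01 and 70.99 in dKOEV, 76.77 and 73.79 in dKOMut and 81.29 and 74.59 in dKOPRMT. All 6 dKO libraries lay above both WTEV libraries, and the 3 dKO groups overlapped. From WTEV to dKOEV the log2 fold change was 0.90 ± 0.08 (a fold of 1.86), with a range of 0.83 to 0.95 under the alternatives. Against dKOEV it was 0.03 ± 0.08 for dKOMut and 0.08 ± 0.08 for dKOPRMT, and between these groups 0.05 ± 0.08. The summed macrophage markers were lower in dKOEV than in WTEV, the reverse of Slc40a1.

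Ireb2 (chr9:54863755-54912534, plus strand) varied within a narrow range. It stood at 111 and 104.4 CPM in WTEV, 99.66 and 90.03 in dKOEV, 103.4 and 106.8 in dKOMut and 111.8 and 109.9 in dKOPRMT. Both dKOEV libraries were the lowest, and WTEV overlapped dKOMut and dKOPRMT. The log2 fold change was -0.19 ± 0.07 for dKOEV against WTEV, and this call was lost in 8 of 15 alternatives, DESeq2 (-0.19) and the fits without WTEV replicate 1 (-0.14), WTEV replicate 2 (-0.23), dKOEV replicate 2 (-0.12), dKOPRMT replicate 1 or dKOPRMT replicate 2 (both -0.19) among them. It was 0.23 ± 0.07 for dKOPRMT against dKOEV, lost without dKOEV replicate 2 (0.16), dKOPRMT replicate 1 (0.22) or dKOPRMT replicate 2 (0.24). For dKOMut against dKOEV it was 0.15 ± 0.07 and not called, but it was called without dKOEV replicate 1 (0.23). Between dKOPRMT and dKOMut it was 0.08 ± 0.06. The calls of Ireb2 thus lay close to the threshold.

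Of 6 other iron regulators tested, Fbxl5, which encodes the iron-sensing ubiquitin ligase subunit that sends IRP2 to degradation, moved most. Its level was 42.61 and 47.77 CPM in WTEV, 70.58 and 68.57 in dKOEV, 77.98 and 64.57 in dKOMut and 51.2 and 50.6 in dKOPRMT. The dKOEV and dKOMut libraries lay above WTEV and dKOPRMT, the reverse of Tfrc. Fbxl5 rose by 0.62 ± 0.09 in dKOEV against WTEV (log2, SE, edgeR adjusted p = 2.22e-06) and fell by 0.45 ± 0.09 in dKOPRMT against dKOEV (edgeR adjusted p = 0.000258). It fell by 0.49 ± 0.09 in dKOPRMT against dKOMut (edgeR adjusted p = 0.000352), a call lost without dKOMut replicate 1 (-0.35). Aco1 (IRP1) rose by 0.26 ± 0.07 in dKOPRMT against dKOEV (edgeR adjusted p = 0.0156, lost without dKOPRMT replicate 1, 0.21). Hfe, an iron sensor that binds the transferrin receptor, rose by 0.46 ± 0.14 in dKOEV against WTEV (edgeR adjusted p = 0.0194, lost without WTEV replicate 1, 0.47, WTEV replicate 2, 0.46, or dKOEV replicate 1, 0.34).

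Keap1, the adaptor that directs NRF2 to degradation, fell by 0.22 ± 0.06 in dKOPRMT against dKOEV (edgeR adjusted p = 0.018, lost without dKOEV replicate 1, -0.18, dKOPRMT replicate 1, -0.18, or dKOPRMT replicate 2, -0.25). The haem-sensing repressor Bach1 and the activator Nfe2l2 (NRF2), both known regulators of Hmox1, were called in none of the 4 comparisons. Bach1 was higher in dKOEV than in WTEV by 0.15 ± 0.06 (log2, SE), at an unadjusted p under 0.05 by edgeR. In dKOMut against dKOEV, 0 of the 6 regulators were called with edgeR, DESeq2 or limma voom, and 2 were lower at an unadjusted p under 0.05. Hamp, which encodes the hormone hepcidin, had 7 counts in all libraries together.

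Iron-sulphur cluster assembly, the other large use of mitochondrial iron, held 21 genes, all tested. In dKOEV against WTEV, 0 rose and 3 fell (1 higher at an unadjusted p under 0.05, 0 by DESeq2 or limma voom). Lyrm4, the stabilising partner of the cysteine desulphurase, fell by 0.79 ± 0.18 (log2, SE, edgeR adjusted p = 0.0018), and Hspa9, the mitochondrial chaperone that hands clusters on, fell by 0.24 ± 0.04 (edgeR adjusted p = 1.12e-05). Glrx5, a glutaredoxin that passes clusters on, fell by 0.25 ± 0.08 (edgeR adjusted p = 0.0333), a call lost with DESeq2 and without WTEV replicate 1 (-0.29), WTEV replicate 2 (-0.21) or dKOEV replicate 1 (-0.16). None was called in dKOPRMT or dKOMut against dKOEV by edgeR, DESeq2 or limma voom, with 1 and 0 higher and 2 and 1 lower at an unadjusted p under 0.05.

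Over the 6 pathway lists, 66 other genes were tested. In dKOEV against WTEV 6 rose and 6 fell, in dKOPRMT against dKOEV 6 rose and 8 fell, in dKOMut against dKOEV 3 rose and 4 fell, and in dKOPRMT against dKOMut 0 rose and 4 fell (4 higher at an unadjusted p under 0.05, 0 by DESeq2 or limma voom). Their median log2 fold changes were -0.02, -0.02, -0.02 and -0.01, near those of all genes. Of all genes tested, 8.44%, 5.96%, 4.24% and 1.43% were called higher in these comparisons, in the same order. The shares called lower were 7%, 8.67%, 7.08% and 1.68%. Most genes of the pathways did not pass the test in any single comparison. The 9 genes described here were picked with values known, so the size of their differences is not set against that of the other genes.

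**Figure D4:**
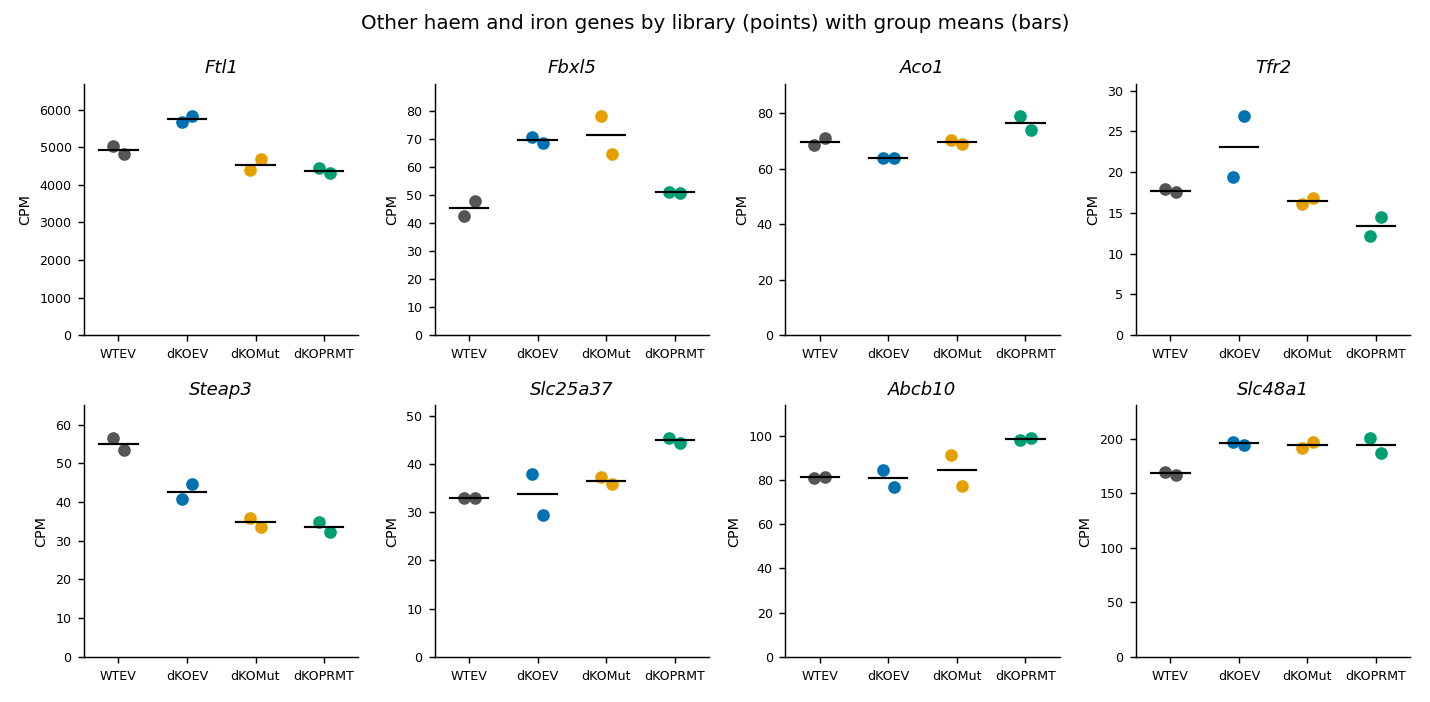
CPM of 8 other haem and iron genes, with a point for each library and a bar at the group mean, on linear axes from 0. Ftl1 is highest in dKOEV (5664 and 5824 CPM), Fbxl5 is higher in dKOEV and dKOMut than in WTEV and dKOPRMT, and Slc25a37 and Abcb10 are highest in dKOPRMT.

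Ratios within a library place the genes against each other without the scaling between libraries. Per length, Tfrc stood at 0.0465 and 0.0460 of Fth1 in WTEV, 0.0377 and 0.0367 in dKOEV, 0.0523 and 0.0527 in dKOMut and 0.0744 and 0.0767 in dKOPRMT. The 4 groups did not overlap, dKOEV had the lowest and dKOPRMT the highest ratio of receptor to ferritin transcript. Hmox1 stood at 0.660 and 0.692 of Alas1 in WTEV, 0.583 and 0.507 in dKOEV, 0.510 and 0.435 in dKOMut and 0.365 and 0.394 in dKOPRMT, with dKOEV and dKOMut overlapping. The transcript for haem breakdown was thus lowest against that for haem synthesis in dKOPRMT.

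**Figure D5:**
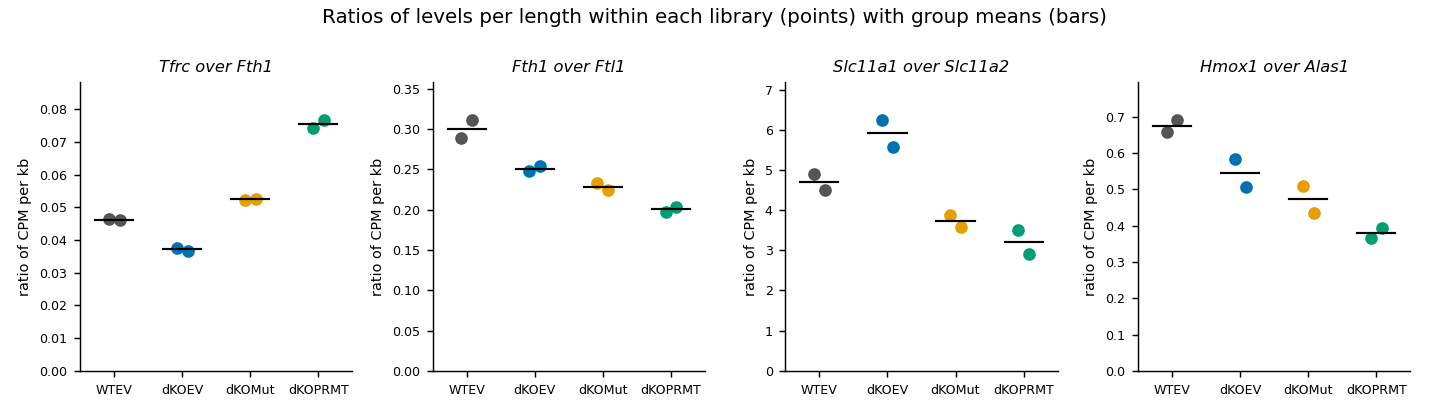
Ratios of CPM per kb within each library (points) with group means (bars), on linear axes from 0. Tfrc over Fth1 is highest in dKOPRMT (0.0744 and 0.0767), while the ratios Fth1 over Ftl1, Slc11a1 over Slc11a2 and Hmox1 over Alas1 are lowest there.

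Profiles were compared by the root mean square difference in log2(CPM + 1) over the 8 libraries, after each gene was centred on its own mean. Among the 9 genes, Fth1 and Slc11a1 were closest (0.0941), followed by Tfrc and Ireb2 (0.123) and Alas1 and Tfrc (0.133). The pair furthest apart was Slc40a1 and Slc11a1 (0.724). Of 9936 other genes with a mean of at least 5 CPM, those closest to Fth1 were H2-K1 (0.0276), Epsti1 (0.0374) and Irgm2 (0.0413). Those closest to Slc11a1 were C5ar1 (0.0734), Ccl6 (0.0763) and Helz2 (0.0772). Among the 3 closest to Hmox1 were Mtss1 (0.0712) and Lgals9 (0.0754), and closest to Slc40a1 were Tbkbp1 (0.0748), Rasgrp4 (0.0829) and Ppic (0.0854). Ikbke (0.0471), P4hb (0.0597) and Zfp113 (0.0613) were closest to Tfrc, and Tmem230 (0.0473), 9430016H08Rik (0.0555) and Slc39a13 (0.0609) to Alas1. Tomm7 (0.0346), Rpl38 (0.0443) and Adk (0.0530) were closest to Slc11a2. For Fech and Ireb2, which varied least (0.0987 and 0.0955 around their own means), the closest genes were Mon2 (0.0363) and Wsb1 (0.0309). All profiles come from the same 8 libraries, so these distances are a description.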

How the data were processed

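RNA of 8 mouse HSPC libraries was measured. Per the labels' protocols, total RNA came from an RNeasy Plus Micro extraction, and a directional Ultra II kit served for library construction. The submitters' processing notes name Trim Galore 0.6.6, STAR 2.7.6a and featureCounts, and the build GRCm38 (mm10). Which annotation and strand setting the counting used is not given in the sources, so overlapping and antisense genes cannot be separated. The authors deposited a table of raw counts per gene, with coordinates and gene length, and no replicate was pooled.

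From these counts, edgeR 4.0.16 (R 4.3.3) modelled group alone over the 8 libraries together, with filterByExpr, TMM scaling and the robust quasi-likelihood test. Benjamini-Hochberg adjustment ran over the 12744 genes tested, at a threshold of 0.05. CPM is each count scaled to the TMM-scaled library total, and CPM per kb divides it by the deposited gene length. The fit left 4 residual degrees of freedom, at a common biological coefficient of variation of 0.0637. The pipeline was tested on simulated data. Groups came from the sample titles.

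The 9 genes and the lists of pathway and marker genes were chosen with earlier results of these data known. Of the 81 other pathway genes listed, 79 had a row. All 9 genes are named, and of the other genes on a pathway or context list up to 4 per list and comparison, those called with the smallest p. The closest 3 genes are named for profile likeness, except for Fech and Ireb2, for which 1 is given. A few genes that this rule selects are not reported here, though they remain in the counts. C1qb, Kit, the neutrophil markers called in dKOPRMT against dKOMut, and the genes that were not called or not tested, are named as context.

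Replicates of a group differed by more than sampling noise (chi-square per degree of freedom 3.592 to 6.378). Same-numbered replicates of different groups did not deviate together (r from -0.0321 to -0.0017). Alternatives were DESeq2 size factors, no count filter, a filter of at least 1 CPM in 2 libraries, DESeq2 1.42.0, limma 3.58.1 voom, a fit of the compared groups without the others, a threshold of 0.01, a replicate block, and leaving out every library in turn.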

Additional observations from a re-analysis of the deposited data

How the results depend on the processing

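The counts of called genes were recomputed for 16 results, giving 256 values under the alternatives, of which 233 lay within 1.5 times the main count and 23 did not. With an adjusted p under 0.01, 1 of the 9 genes was called higher in dKOPRMT against dKOEV and 1 lower in dKOPRMT against dKOMut. For the other pathway genes called lower in dKOMut against dKOEV, DESeq2 gave 1, the compared groups alone gave 2 and the threshold of 0.01 gave 1. With each library left out in turn, the 9 genes called lower in dKOEV against WTEV numbered 2 to 4, those called higher in dKOPRMT against dKOEV 1 to 3, those called higher in dKOMut against dKOEV 0 to 1, and those called lower in dKOPRMT against dKOMut 1 to 2. Other pathway genes then ranged from 3 to 7 lower in dKOEV against WTEV, from 4 to 8 higher and 5 to 8 lower in dKOPRMT against dKOEV, from 2 to 5 higher and 1 to 5 lower in dKOMut against dKOEV, and from 0 to 1 higher and 2 to 4 lower in dKOPRMT against dKOMut. The cause was not tested, except that a group left with 1 library has fewer samples and is assumed to vary like the others. The replicate block changed 0 of the counts and 0 of the calls of named genes; replicates share only a number, since they did not deviate together. Of 540 fold changes of the 9 genes under the alternatives, 19 lost and 1 gained a call and 0 called values changed sign. Of 780 of the other named genes, 72 lost a call. No scaling moved the median of all genes by over 0.1 on the log2 scale. With 2 libraries a group, small differences such as those of Fech and Ireb2 cannot be resolved.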

Other observations

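Known targets of NRF2 and BACH1, the factors that also control Hmox1, were measured as context, 15 genes without Hmox1 itself. In dKOEV against WTEV 6 rose and 0 fell (1 lower at an unadjusted p under 0.05 and 0 by DESeq2 or limma voom), whereas Hmox1 was lower there (-0.32 ± 0.08 on the log2 scale). Gclm, a subunit of the rate-limiting enzyme of glutathione synthesis, rose by 0.55 ± 0.06 (edgeR adjusted p = 2.95e-09), and Slc7a11, the cystine importer, by 0.63 ± 0.13 (edgeR adjusted p = 0.000504).

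In dKOPRMT against dKOEV 4 of these targets rose and 4 fell. Sqstm1, an autophagy receptor, fell by 0.50 ± 0.05 (edgeR adjusted p = 1.11e-09) and Prdx1, a peroxiredoxin, by 0.26 ± 0.04 (edgeR adjusted p = 4.81e-05, -0.17 without dKOEV replicate 2). Gsr, glutathione reductase, rose by 0.30 ± 0.04 (edgeR adjusted p = 1.06e-07) and G6pdx, which supplies NADPH, by 0.28 ± 0.04 (edgeR adjusted p = 5.44e-06). The list thus did not share 1 direction with Hmox1 (-0.38 ± 0.08). In dKOMut against dKOEV 4 rose and 3 fell, and in dKOPRMT against dKOMut 2 rose and 1 fell.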
